A study of Mus musculus with 15 samples.

Results

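MLC, the cells that the study made from mouse primary hepatocytes, were compared with MSC, mouse mesenchymal stromal cells, to ask how alike the 2 stromal states are. The comparison used 6 of the 15 arrays of the series, 3 MLC and 3 MSC arrays by their titles, and all 18193 genes, each read from its probe set of highest mean across the 15 arrays. To make MLC, primary hepatocytes were kept in the medium of MSC plus human TGF-β1, at 10 ng/ml to day 7, at 5 ng/ml to day 14 and at 1 ng/ml to day 28, and from then on in that medium without it. MSC were grown in the same medium, low-glucose DMEM with 10% fetal serum, with no hepatocyte stage and no TGF-β1. The groups dHD28 (HD28 cells returned to MSC medium) and Hepatocyte (primary hepatocytes in DMEM/F12 with 10% serum) place the comparison, and with HD28 (MSC after hepatogenic differentiation) they also enter the error of the main fit and so its intervals and calls. The strain, sex and age of the mice and the tissue that gave the MSC are not given in the sources used here. Nothing says that arrays of a group came from separate animals or cultures, so the intervals and p-values measure the spread between these arrays, which may be technical.

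Mesenchymal stromal cells are fibroblast-like cells that adhere to plastic, secrete collagen-rich matrix and can form bone, cartilage and fat in culture. TGF-β binds a pair of receptor kinases that phosphorylate Smad2 and Smad3. In epithelial cells, hepatocytes included, it is known to lower E-cadherin and to raise matrix, actin filament and mesenchymal transcription factor genes, the change called epithelial to mesenchymal transition. Positional identity is a separate layer: fibroblasts from different body sites keep different combinations of Hox genes through many passages.

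Values are log2 expression values made by the authors with robust multi-array average (RMA), so 1 unit is a 2-fold difference. A gene changed if its adjusted p in limma was under 0.05 and its fold at least 2. A gene was equivalent if a pair of one-sided limma tests, with Benjamini-Hochberg adjustment across the table, placed its difference between -1 and 1 at an adjusted p under 0.05. A gene that was neither changed nor equivalent was undetermined. Over all genes 90.2% were equivalent in the fit of all 15 arrays and 92.3% in the fit of the 6 arrays. Every count of equivalent genes in a list is to be read beside these shares. Differences are MLC minus MSC, each with its 95% interval from the fit of all 15 arrays unless the 6-array fit is named.

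Some facts of the arrays bear on every result. The poly-A spike-in RNAs, bacterial transcripts added to the sample before labelling, gave a high mean signal on 2 MLC arrays (replicates 1 and 2) and 1 MSC array (replicate 1), and a low one on MLC replicate 3 and MSC replicates 2 and 3, with a gap between 5.37 and 7.09 over the series. Over the 6 arrays, 766 genes differed by 1 or more between the high and the low class, 666 of them lower in the high class, against 9 genes between MLC and MSC. The class is unequally spread over the groups, and its part in a difference between them was not tested beyond the fits with class as a block. HD28 replicate 3 had hepatocyte genes near the level of hepatocytes, which widened the pooled error of those genes. For them the fit of the 6 arrays is given beside the main fit.

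Hepatocyte markers lay far below the level of hepatocytes in MLC as in MSC. Alb, the main plasma protein of hepatocytes, read 3.96, 3.64 and 3.95 on the MLC arrays, against 3.92, 3.83 and 3.95 on the MSC arrays. In primary hepatocytes it averaged 14.1 ± 0.02 (SD, n = 3). Ttr, Apoa1, Hnf4a, Cyp2e1 and Cps1 lay between 3.88 and 6.22 on every MLC array and between 3.89 and 6.34 on every MSC array, against hepatocyte means of 10.9 to 13.9. Cdh1, the adhesion molecule E-cadherin of epithelia, read 2.64, 2.86 and 2.78 in MLC, against 2.92, 2.74 and 2.79 in MSC and a mean of 8.16 in hepatocytes. MLC and MSC overlapped at the low end for these genes.

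Surface markers used to define mesenchymal stromal cells were set against the same probe sets in hepatocytes, and they did not all stand above them. Cd44, the hyaluronan receptor, read 10.83, 10.5 and 10.18 in MLC, against 10.53, 10.36 and 10.21 in MSC and a mean of 5.99 in hepatocytes. Itgb1, the integrin β1 chain, read 10.84, 9.73 and 10.36 in MLC, against 9.3, 10.55 and 10.26 in MSC. Thy1 (CD90) read 3.83, 5.2 and 4.87 in MLC and 5.91, 3.91 and 4.35 in MSC, around the hepatocyte mean of 4.64. Nt5e (CD73) lay between 5.74 and 6.01 in MLC and between 5.91 and 6.11 in MSC, against 6.14 in hepatocytes. Eng (CD105) lay between 6.29 and 6.45 in MLC and between 6.4 and 6.63 in MSC, below the hepatocyte mean of 8.02. Cd34, usually absent from cultured human MSC, read 7.99, 8.78 and 7.91 in MLC, against 8.98, 8.15 and 7.72 in MSC and a mean of 4.03 in hepatocytes. Ptprc (CD45), Itgam and Pecam1, markers of blood and endothelial cells, lay between 2.49 and 3.56 in both groups. Of the 42 markers, 41 had a named probe set, and Ly6a (Sca-1) did not.

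No gene changed between MLC and MSC. Of 18193 genes, 0 (0%) passed the threshold in limma, the smallest adjusted p was 0.999993, and 91 (0.5%) had an unadjusted p under 0.05, of which 18 were higher and 73 lower in MLC. A calibrated test would on average give a share near 0.05 if no gene differed. Genes vary together across these arrays, so the lower share here cannot settle whether the test was conservative. With array weights the share was 8.51%. The lack of changed genes does not by itself show likeness. The arrays also placed limits on what could differ: 16414 genes (90.2%) were equivalent within 2-fold, and for 15601 genes (85.8%) the 95% interval itself lay between -1 and 1. The interval of 8664 genes lay within 0.58 units of 0, a 1.5-fold difference, and that of 17920 genes within 2 units, a 4-fold difference. For the remaining 273 genes a 4-fold difference in at least 1 direction lay inside the interval.

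The differences themselves were small. Of all 18193 genes, 16125 differed by less than 0.25 units and 18027 by less than 0.5, and 8315 were higher in MLC. The median difference was -0.02, and from the 5th to the 95th percentile differences ran from -0.28 to 0.25. The 95% interval had a median of 0.47 units on either side of the difference. The far end of the interval, the largest difference either way that it holds, had a median of 0.59 units (1.51-fold), and it was under 1.13 units (2.20-fold) for 90% of the genes.

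Dim and bright genes were equivalent at similar rates. When genes were ordered by level and cut into 4 equal groups, 93.2%, 90.1%, 86.5% and 91.1% of them were equivalent from the lowest to the highest. Among the 7337 genes with a mean of 7 or more in either group, 6557 (89.4%) were equivalent. Among the 11435 with a mean of 5 or more in either group, 10103 (88.4%) were. The other 6758 genes had means under 5 in both groups. For genes near the floor of the array, signals within 2-fold need not mean RNA levels within 2-fold.

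**Figure D1:**
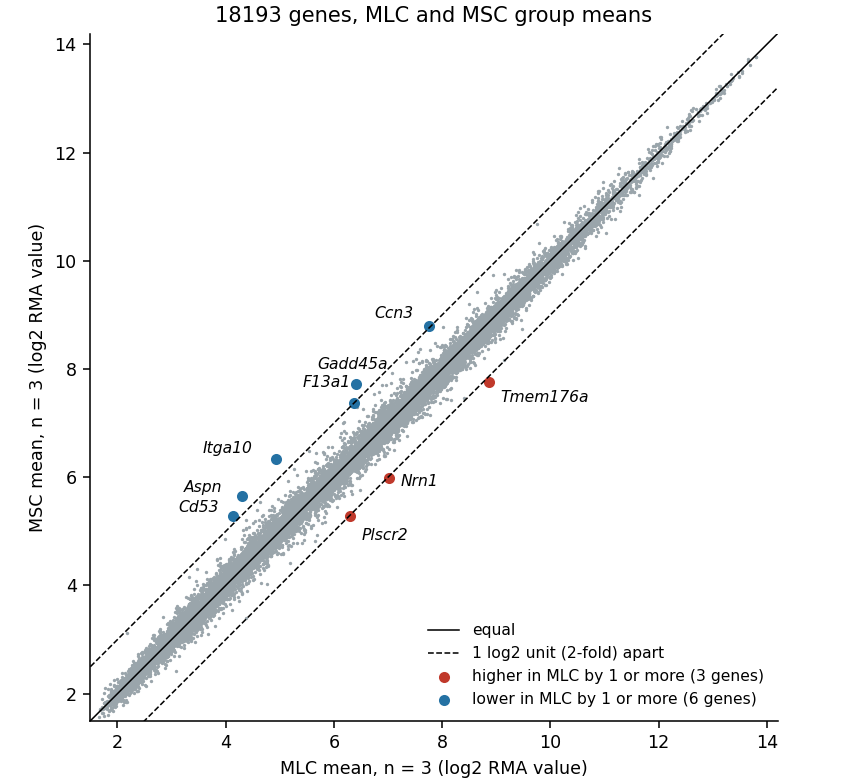
Each point is 1 of 18193 genes, with its MLC mean on the x axis and its MSC mean on the y axis (log2 RMA values, n = 3 arrays each). The solid line marks equal means and the dashed lines a 2-fold difference, and 9 genes lie on or outside them, 3 higher in MLC (red) and 6 lower in MLC (blue).

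The whole profiles were as near between the groups as within them. The root mean square difference over all genes averaged 0.43 units over the 9 pairs of an MLC and an MSC array and 0.49 over the 6 pairs within a group. Between minus within was -0.07 (exact two-sided permutation test over the 20 splits of 6 arrays, p = 0.5, where the smallest possible p is 0.1). For MLC and dHD28 the same value was -0.06 (exact p = 0.4), for MLC and HD28 it was 0.31 (exact p = 0.1), and for MLC and Hepatocyte 1.27 (exact p = 0.1). The MLC and Hepatocyte arrays lay 1.79 units apart on average.

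Single arrays paired up across the labels. MLC replicate 3 and MSC replicate 3 were the closest pair of the 6 arrays (0.21). MLC replicate 2 was nearest to MSC replicate 1 (0.28), and MLC replicate 1 to MSC replicate 2 (0.34), whereas MSC replicate 2 was nearest to MSC replicate 3 (0.29). For 5 of the 6 arrays the nearest array carried the other label, and for 5 of 6 it had the same spike-in class. MSC replicate 1 stood apart from its own group, with 0.66 units to its nearest MSC array, and over all 15 arrays both it and MLC replicate 2 were nearest to dHD28 replicate 2, also of the high class (0.23 and 0.27).

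**Figure D2:**
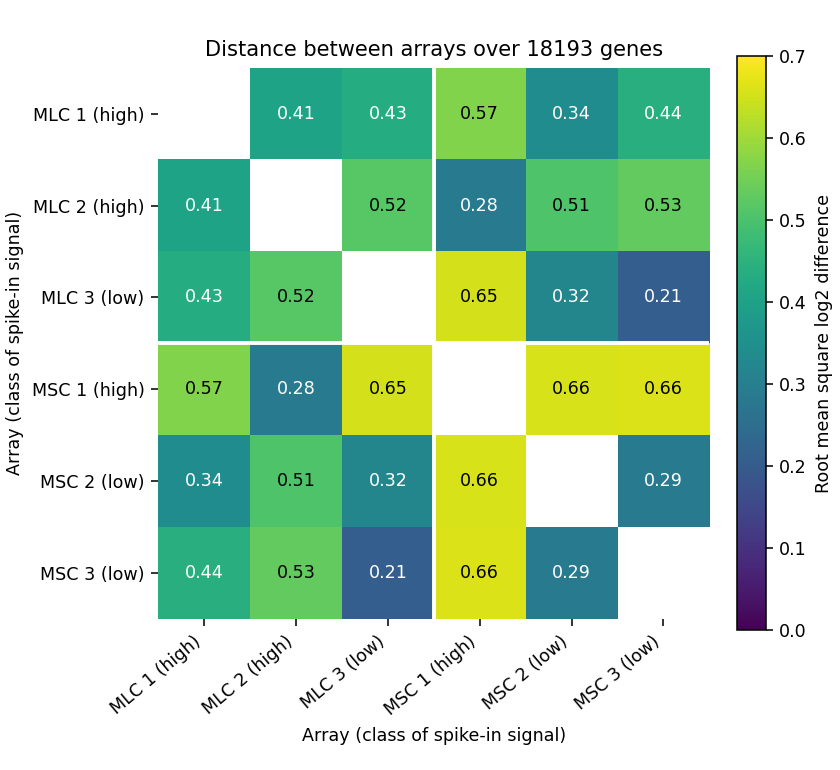
The grid gives the root mean square log2 difference over 18193 genes for each pair of the 6 arrays, MLC above and left of MSC, with the spike-in class in brackets. Values run from 0.21 (MLC 3 and MSC 3) to 0.66 (MSC 1 and MSC 3), and for 5 of 6 arrays the lowest value lies in the other group.

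For scale, 5541 genes (30.5%) changed between MLC and Hepatocyte in limma and 48.1% were equivalent. Between MLC and dHD28 0 genes changed (0%) and 90% were equivalent, and between dHD28 and MSC 0 changed (0%) and 88.7% were equivalent. These comparisons share arrays with that of MLC and MSC.

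The genes that separate hepatocytes from stromal cells were taken as the 5608 genes (30.8%) that changed between dHD28 and Hepatocyte in the same fit, where 47.6% of all genes were equivalent. The values of MLC and MSC did not enter that difference, but their spread entered its error. Of 2249 genes higher in Hepatocyte than in dHD28, 0 changed between MLC and MSC and 1611 (71.6%) were equivalent, or 1976 (87.9%) in the fit of the 6 arrays. For the 534 genes at least 16-fold higher in Hepatocyte the median level was 4.06 in MLC and 4.15 in MSC, against 10.6 in Hepatocyte, and 138 (25.8%) were equivalent in the main fit. In the 6-array fit 477 (89.3%) were, beside 92.3% of all genes. Of 3359 genes higher in dHD28 than in Hepatocyte, 0 changed between MLC and MSC and 2889 (86.0%) were equivalent. Of the 312 that were at least 16-fold higher in dHD28, 188 (60.3%) were equivalent in the main fit and 249 (79.8%) in the 6-array fit, both below the share of all genes. The sentences on single hepatocyte genes give the limits that the arrays set on any difference.

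The promoters of 2 genes at opposite ends of this contrast are shown because they carry sequence elements known to bind the factors that drive them in liver and in contractile stromal cells. Each window runs from 250 bases before to 50 after the start in RefSeq (GRCm38.p6), 5′ to 3′ on the strand of the gene. The Alb window is chr5:90460620-90460919 on the plus strand. Its capitals mark GTTAAT, the core of the site for hepatocyte nuclear factor 1, 32 bases before the start. The Acta2 window is chr19:34255324-34255623 on the minus strand. Its capitals mark 2 CArG boxes, the element that serum response factor binds, CCCTATATGG and CCTTGTTTGG, which begin 84 and 34 bases before the start.
Alb: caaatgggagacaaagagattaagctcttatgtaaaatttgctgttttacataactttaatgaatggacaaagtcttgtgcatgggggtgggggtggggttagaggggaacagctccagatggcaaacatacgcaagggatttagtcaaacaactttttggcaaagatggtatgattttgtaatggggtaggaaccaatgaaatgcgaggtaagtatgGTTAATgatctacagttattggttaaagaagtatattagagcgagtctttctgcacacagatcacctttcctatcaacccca
Acta2: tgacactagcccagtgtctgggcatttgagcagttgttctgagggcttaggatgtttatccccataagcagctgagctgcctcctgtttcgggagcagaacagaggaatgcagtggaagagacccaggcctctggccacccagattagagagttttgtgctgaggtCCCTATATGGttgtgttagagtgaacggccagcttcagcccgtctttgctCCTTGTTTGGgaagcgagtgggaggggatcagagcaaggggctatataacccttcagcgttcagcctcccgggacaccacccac
The search covered both strands of 32851 such windows. GTTAAT was found in 7.10% of them, and a CArG box, taken as CC, 6 bases with at most 1 C or G, and GG, in 9.98%. That definition was chosen to hold both elements known in Acta2. The matches describe the sequences and say nothing about which factors were bound here.

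The 30 measured genes for proteins that hepatocytes secrete averaged 4.18, 4.28 and 4.58 on the MLC arrays and 4.40, 4.35 and 4.48 on the MSC arrays, against 12.6 in hepatocytes. None changed. Their median difference was -0.07 with 8 of 30 higher in MLC, but 0.16 with 23 of 30 higher when spike-in class was a block in the main fit, and -0.05 with 11 of 30 higher when it was a block in the 6-array fit. In the main fit only 1 was equivalent, where HD28 replicate 3 enters the error, but 27 were equivalent in the fit of the 6 arrays and 27 in the fit without HD28 replicate 3, in which 92% of all genes were. For Alb the 6-array interval ran from -0.38 to 0.28, for Apoa1, the main protein of high-density lipoprotein, from -0.48 to 0.32, and for Ttr, the thyroxine carrier transthyretin, from -0.55 to 0.12. The main fit gave -4.16 to 4.06 for Alb around the same difference of -0.05.

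The largest differences of this list were those of Serpina1b and Apob. Serpina1b, an α1-antitrypsin, read 3.13, 3.46 and 3.74 in MLC, against 3.51, 4.24 and 4.5 in MSC, and was among 3 members undetermined in the 6-array fit, with Kng1 and Hp. Apob, the protein of very low-density lipoprotein, read 5.28, 4.44 and 4.07 in MLC and 4.23, 4.61 and 4.24 in MSC, with a 6-array interval from -0.52 to 1.00. Hepatocytes averaged 13.7 for Serpina1b and 12.9 for Apob.

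Enzymes and transporters of hepatocytes did not change, and 25 of 31 had means under 5 in both groups. The 31 members averaged 4.03, 4.16 and 4.31 on the MLC arrays, against 4.22, 4.13 and 4.24 on the MSC arrays and 11.4 in hepatocytes. In the main fit 6 of 31 were equivalent and 25 undetermined. In the 6-array fit 29 were equivalent, among them Cyp2e1, which oxidises ethanol (interval -0.37 to 0.29), Cps1, the entry step of the urea cycle (-0.34 to 0.21), and Cyp3a11, a drug-metabolising enzyme (-0.51 to 0.24). The pair undetermined in both fits was Adh1, alcohol dehydrogenase, and Pygl, liver glycogen phosphorylase. Adh1 read 6.26, 6.02 and 7.06 in MLC, against 4.91, 8.07 and 7.76 in MSC, and Pygl 3.38, 3.77 and 5.52 in MLC, against 3.38, 2.71 and 5.29 in MSC. In neither gene did the groups separate. Asl and Fah, enzymes of the urea cycle and of tyrosine breakdown, were expressed in both groups (7.09 to 8.39 in MLC and 7.57 to 8.67 in MSC) and were equivalent.

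Of the 18 liver transcription factors, 14 were equivalent in the main fit and 17 in the 6-array fit. Hnf4a, a nuclear receptor needed for hepatocyte identity, read 5.03, 4.93 and 5.3 in MLC, against 5.31, 5.1 and 5.24 in MSC, with a 6-array interval from -0.48 to 0.22 and a hepatocyte mean of 10.9. Cebpb and Atf5, bZIP factors also used outside the liver, lay between 9.29 and 10.3 in MLC and between 9.61 and 10.18 in MSC, and both were equivalent. Cebpa, a bZIP factor of hepatocytes and fat cells, was undetermined, with 7.23, 8.53 and 7.94 in MLC and 8.73, 8.42 and 8.13 in MSC, a difference of -0.53 (-1.39 to 0.34). MLC replicates 1 and 3 lay below all MSC values.

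Among 24 genes of bile duct and other epithelia, 17 were equivalent in the main fit and 23 in the 6-array fit. Krt8 and Krt18, the keratin pair of hepatocytes, lay between 2.6 and 4.75 in MLC and between 2.89 and 5.03 in MSC, against hepatocyte means of 11.26 and 11.15. Epcam, a surface protein of bile duct and progenitor cells, read 6.88, 6.76 and 7 in MLC, below 7.13, 7.46 and 7.34 in MSC. Its arrays did not overlap between the groups, as in 5.28% of all genes and 5 of the 24 genes of this list. The difference was -0.43 (-0.78 to -0.08, adjusted p = 0.999993 in limma), and Epcam was equivalent. The other of the 2 Epcam probe sets differed by 0.02. Krt19, a keratin of bile duct cells, was undetermined, with 7.96, 7.13 and 6.25 in MLC and 7.46, 6.45 and 6.18 in MSC.

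No stromal surface or mesenchymal transcription factor gene changed. Of 23 surface markers 14 were equivalent (60.9%, beside 90.2% of all genes). In the 6-array fit 16 were, though Thy1 and the BMP receptor gene Bmpr1a, equivalent in the main fit, were not. Cd81, a tetraspanin, read 11.01, 10.89 and 11.17 in MLC, against 10.93, 11.16 and 11.1 in MSC. Cxcl12, the chemokine that retains blood stem cells in marrow, read 12.16, 11.76 and 12.49 in MLC, against 11.45, 12.63 and 12.48 in MSC, and its interval ran from -0.68 to 0.57. Pdgfra, a receptor for platelet-derived growth factor, spread more widely within each group, with 9.21, 8.18 and 10.34 in MLC and 7.51, 10.21 and 9.95 in MSC, and was undetermined (-1.42 to 1.47). Its lowest values were those of MLC replicate 2 and MSC replicate 1, both of the high spike-in class.

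Of 24 mesenchymal transcription factor, cadherin and related genes 18 were equivalent (75%, beside 90.2% of all genes). Among them were Fn1, the matrix protein fibronectin (12.75, 12.2 and 12.85 in MLC, against 12.11, 13.14 and 13.13 in MSC), and Prrx2, a mesenchymal homeobox factor (10.55, 10.5 and 10.4 in MLC, against 10.61, 10.81 and 10.46 in MSC). The other of the 2 Fn1 probe sets differed by -0.81, against -0.19 for the one used. Snai2, a repressor of E-cadherin, was equivalent too (10.22, 10.03 and 10.91 in MLC, against 9.29, 10.75 and 10.98 in MSC). Its interval was -0.90 to 0.99 in the main fit and wider, -1.10 to 1.20, in the 6-array fit. Twist1, a factor of cranial and limb mesenchyme, differed by -0.05 (-0.62 to 0.52). Vim, the intermediate filament of mesenchymal cells, read 13.43, 13.66 and 13.35 in MLC, against 13.59, 13.28 and 13.31 in MSC. Its main interval of -1.95 to 2.12 left it undetermined, while the 6-array interval of -0.27 to 0.44 made it equivalent.

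All 33 measured Hox genes were equivalent, beside 90.2% of all genes, and 7 of them had a mean of 7 or more in MLC, 6 in MSC, 5 in dHD28 and 0 in Hepatocyte. Of the 33, 14 had means under 5 in both groups, near the floor, and 19 had a mean of 5 or more in either group. Hoxc10, a gene of the posterior trunk and hind limb code, read 9.71, 9.66 and 9.57 in MLC, against 9.79, 9.85 and 9.58 in MSC and 3.48 ± 0.81 in hepatocytes (SD, n = 3). Its interval of -0.73 to 0.54 lies within 2-fold. Hoxa9 read 9.34, 8.78 and 9.29 in MLC, against 8.78, 9.48 and 9.19 in MSC (-0.68 to 0.66), and Hoxa10 read 8.01, 8.23 and 8.52 in MLC, against 8.35, 8.31 and 8.32 in MSC (-0.53 to 0.39). Hepatocytes averaged 3.45 and 3.53 for these genes.

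Hoxc9 differed by 0.06 (-0.41 to 0.53), Hoxc13 by 0.06 (-0.79 to 0.91) and Hoxc6 by 0.01 (-0.44 to 0.46). The largest differences of the family were -0.25 for Hoxb1, which lay at the floor with 1.89 to 2.44 in MLC and 2.4 to 2.5 in MSC, and 0.24 for Hoxb2.

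Of 34 other patterning factors 33 were equivalent, and 9 had a mean of 7 or more in MLC, 9 in MSC and 0 in Hepatocyte. Of the 34, 15 had means under 5 in both groups. Shox2, a factor of the proximal limb, read 10.33, 9.74 and 9.98 in MLC, against 9.35, 10.49 and 10.24 in MSC. Tbx18 and Tbx15, T-box factors of trunk and limb mesenchyme, lay between 8.72 and 10.07 in MLC and between 8.55 and 10.12 in MSC, with hepatocyte means of 3.33 and 5.20. Irx3, an Iroquois homeobox factor, was the undetermined member, with 8.47, 9.13 and 9.33 in MLC and 8.95, 9.69 and 9.65 in MSC, a difference of -0.45 (-1.16 to 0.25).

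**Figure D3:**
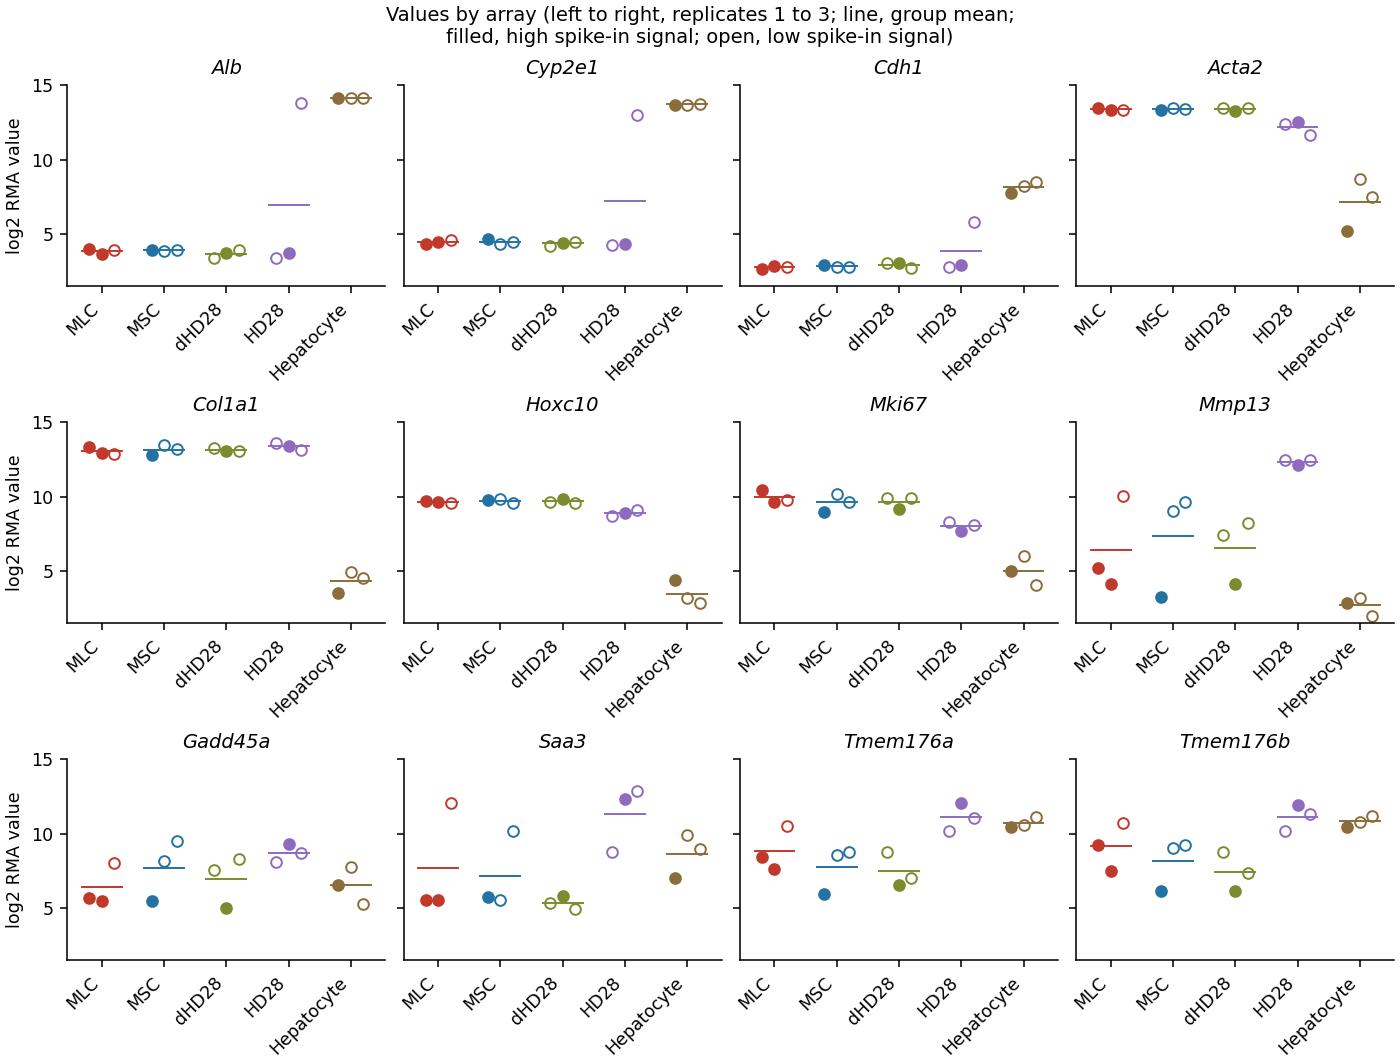
Each panel plots the log2 RMA value of 1 gene on the y axis by array and group, with MLC left of MSC, replicates 1 to 3 from left to right, a line at the group mean, and filled points for arrays of high spike-in signal. Alb, Cyp2e1 and Cdh1 lie near the floor in MLC and MSC and high in hepatocytes. Acta2, Col1a1 and Hoxc10 lie high in MLC and MSC. Mmp13, Gadd45a, Saa3, Tmem176a and Tmem176b spread within both groups.

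Genes of the extracellular matrix were highly expressed in both groups but less precisely determined than genes at large. Of 27 collagen genes 14 were equivalent and 0 changed, with a median difference of -0.18 beside -0.02 over all genes and 5 of 27 higher in MLC. With spike-in class as block the median was -0.04 and 10 of 27 were higher. Single arrays moved it from -0.35 without MSC replicate 1 (3 of 27 higher) to -0.03 without MSC replicate 2 (10 of 27 higher). Col1a1, a chain of type I collagen, read 13.31, 12.96 and 12.89 in MLC, against 12.83, 13.45 and 13.22 in MSC, and its interval ran from -0.73 to 0.51. Col1a2 (-0.55 to 0.33) and Col5a2 (-0.76 to 0.80) were equivalent too.

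The collagens that differed most lay lower. Col2a1, the collagen of cartilage, read 5.8, 6.45 and 6.31 in MLC, against 6.24, 7.97 and 6.87 in MSC, and Col5a3, a chain of type V collagen, 5.72, 5.8 and 6.96 in MLC, against 6.19, 7.6 and 7.21 in MSC. Each differed by -0.84 (-1.85 to 0.17), and the arrays of the groups overlapped. A 2-fold lower level in MLC lay within the interval of both genes. The other of the 2 Col5a3 probe sets differed by -0.09.

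Of 46 matrix glycoproteins and proteoglycans 24 were equivalent (52.2%, beside 90.2% of all genes) and 0 changed. Sparc, a collagen-binding protein, read 13.22, 12.99 and 13.12 in MLC, against 12.99, 13.4 and 13.31 in MSC, and Bgn, the small proteoglycan biglycan, 12.92, 12.63 and 12.75 in MLC, against 12.6, 12.92 and 12.81 in MSC. Aspn, a small proteoglycan known to bind TGF-β, differed by -1.36 (-3.81 to 1.09). It read 3.6, 2.91 and 6.38 in MLC, against 2.88, 7.36 and 6.72 in MSC, so that the 3 arrays at the floor were the 3 arrays of the high spike-in class.

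Ccn3, a matricellular protein, read 6.03, 7.93 and 9.31 in MLC, against 7.31, 9.2 and 9.9 in MSC, a difference of -1.05 (-2.68 to 0.58). Postn, which helps to crosslink collagen, spanned 8.41 to 10.99 in MLC and 7.55 to 11.47 in MSC, and Dcn, the proteoglycan decorin, 5.51 to 9.26 in MLC and 5.67 to 8.62 in MSC. The lowest values of both genes again came from MLC replicate 2 and MSC replicate 1. By array the 46 genes averaged 8.19, 7.78 and 8.51 in MLC, against 7.67, 8.68 and 8.58 in MSC. Their median difference was -0.09, and 0.01 with the class as a block. Its direction turned with single arrays, from -0.29 without MSC replicate 1 (11 of 46 higher) to 0.06 without MSC replicate 2 (24 of 46 higher).

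Of 28 proteases and inhibitors of the matrix 18 were equivalent. Timp2, an inhibitor of matrix metalloproteinases, Serpinf1, an antiangiogenic serpin, and Serpinh1, a collagen chaperone, lay between 11.93 and 12.5 in MLC and between 11.92 and 12.68 in MSC. Mmp13, a collagenase, had the widest interval, with 5.19, 4.1 and 10.02 in MLC and 3.27, 9.06 and 9.66 in MSC, a difference of -0.89 (-4.53 to 2.74). Adamts4, which cleaves aggrecan, read 6.7, 6.5 and 8.05 in MLC, against 6.51, 8.51 and 8.74 in MSC. In both genes the low-class arrays were high in either group.

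Contractile genes, which TGF-β is known to raise, were high in MLC and in MSC. Acta2, smooth muscle α-actin, whose promoter is shown above, read 13.48, 13.34 and 13.31 in MLC, against 13.3, 13.47 and 13.38 in MSC and 7.13 ± 1.75 in hepatocytes (SD, n = 3). It was undetermined in the main fit (-1.28 to 1.27) and equivalent in the 6-array fit (-0.29 to 0.28). Cnn1, the actin-binding calponin, read 10.36, 9.31 and 9.44 in MLC, against 9.4, 9.47 and 9.47 in MSC, and Actg2, smooth muscle γ-actin, 10.13, 9.12 and 8.89 in MLC, against 9.45, 9 and 9.18 in MSC. Of 26 genes 18 were equivalent, and Myh11, the myosin of mature smooth muscle, was at the floor in both groups (2.98 to 3.45 in MLC and 3.34 to 3.37 in MSC).

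Among 37 TGF-β ligands, receptors, Smads and targets 27 were equivalent (73.0%, beside 90.2% of all genes) and 0 changed, with a median difference of 0.00. The type I receptor gene Acvr1 read 9.33, 9.17 and 9.56 in MLC, against 9.27, 9.5 and 9.66 in MSC. Smad4, the partner of all receptor-activated Smads, lay between 10.25 and 10.42 in MLC and between 10.23 and 10.34 in MSC (-0.31 to 0.34). Grem1, a BMP antagonist, and Inhba, the activin A subunit, had the largest differences, 0.52 (-0.30 to 1.34) and 0.44 (-0.80 to 1.69). Both rested on MLC replicate 1, with 9.87 for Grem1 and 10.17 for Inhba, where the other 5 arrays lay between 8.12 and 9.23 for Grem1 or 8.23 and 9.32 for Inhba.

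Genes of the bone, cartilage and fat lineages did not change. Of 21 osteogenic and chondrogenic genes 16 were equivalent and 3 were higher in MLC, with a median difference of -0.16 beside -0.02 over all genes. The median was -0.14 within the high spike-in class (5 of 21 higher) and 0.04 within the low class (11 of 21 higher). Means of 15 of the 21 lay under 5 in both groups. Sp7, the osteoblast factor osterix, read 6.54, 6.83 and 7.05 in MLC, against 6.5, 7.65 and 7.09 in MSC, and Dmp1, an osteocyte matrix protein, 2.97, 3.69 and 5.28 in MLC, against 4.04, 4.4 and 6.16 in MSC. Dmp1 differed by -0.89 (-2.42 to 0.65), with overlapping ranges.

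Of 27 adipogenic genes 17 were equivalent, Pparg, the master regulator of fat cells, among them (6.22, 7.08 and 6.34 in MLC, against 6.64, 6.26 and 6.4 in MSC). Fabp4, a fatty acid binding protein, had the largest difference of this list, 0.66 (-0.90 to 2.22), with 8.69, 7.76 and 7.83 in MLC and 5.96, 8.81 and 7.55 in MSC. The single low value was that of MSC replicate 1.

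Other liver cell types were checked because the Hepatocyte arrays carried their markers. In hepatocytes Clec4g, of sinusoidal endothelium, averaged 9.61, C1qa, of macrophages, 8.63, Lrat, of stellate cells, 6.13, and Rgs5, of pericytes, 9.07. In hepatocytes 12 of 25 Kupffer cell and leukocyte genes, 5 of 22 endothelial genes and 7 of 23 stellate genes stood 2 units or more above both MLC and MSC. The share of all genes above that cut was not counted. At the threshold for change, a fold of at least 2, 2188 of all 18193 genes were lower in MLC than in Hepatocyte. In a bulk sample fewer cells of a type and less RNA per cell cannot be told apart. Which of the cells in the hepatocyte cultures gave rise to MLC was not tested.

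In MLC these markers lay near the level of MSC. Lrat, the retinol-esterifying enzyme of stellate cells, read 2.24, 2.36 and 2.49 in MLC, against 2.48, 2.27 and 2.32 in MSC, and Des, the filament desmin, 5.36, 5.51 and 5.51 in MLC, against 5.69, 5.36 and 5.34 in MSC. Reln, Rgs5, Lhx2 and Hand2 lay between 2.55 and 4.32 in MLC and between 2.61 and 4.33 in MSC. All 23 measured stellate cell and pericyte genes were equivalent in the 6-array fit, 15 in the main fit.

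Mesothelial Msln, Upk3b, Wt1 and Gpm6a lay between 2.45 and 4.39 in MLC and between 2.46 and 4.25 in MSC. Of the mesothelial list 11 of 15 were equivalent. Igfbp2, a binding protein for insulin-like growth factors also made by hepatocytes, had its largest difference, 0.78 (-1.12 to 2.67), with 5.17, 5.84 and 4.57 in MLC and 3.94, 4.8 and 4.51 in MSC.

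The endothelial list had 20 of 22 members equivalent in the main fit and 22 in the 6-array fit, and the Kupffer cell and leukocyte list 15 of 25 and 22 of 25. Cdh5 and Kdr, defining genes of endothelium, lay between 3.78 and 5 in MLC and between 3.92 and 5.15 in MSC. Cd68, a lysosomal protein of macrophages, read 4.58, 3.82 and 4.75 in MLC, against 4.61, 4.94 and 5.57 in MSC, a difference of -0.65 (-1.73 to 0.43), and the other macrophage genes Adgre1, C1qa and C1qb stayed between 2.95 and 4.41 in both groups. Of 19 genes of muscle, nerve and other distant lineages, 18 were equivalent.

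Xist, expressed from the inactive X of female cells, read 4.91, 4.9 and 5.15 in MLC, against 5.29, 5.07 and 5.21 in MSC and 5.24 in hepatocytes. The Y-linked Eif2s3y read 8.39, 7.45 and 8.49 in MLC, against 7.01, 8.14 and 8.85 in MSC and 8.94 in hepatocytes, and Kdm5d 6.75, 6.26 and 6.65 in MLC, against 6, 7.02 and 7.09 in MSC. Of 9 such genes 7 were equivalent, and the undetermined ones, Eif2s3y and Uty, were low on MLC replicate 2 and MSC replicate 1 together.

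DNA methylation is written by the DNA methyltransferases, copied at replication by Dnmt1 with Uhrf1, and removed through the Tet dioxygenases and, by some accounts, the Gadd45 proteins. Of 19 measured genes of this system 12 were equivalent (63.2%, beside 90.2% of all genes) and 0 changed. Dnmt1, the maintenance methyltransferase, read 9.49, 9.94 and 8.8 in MLC, against 10.03, 8.98 and 8.72 in MSC, a difference of 0.17 (-0.71 to 1.04). The de novo enzymes Dnmt3a (5.72 to 6.09 in MLC, 5.3 to 6.51 in MSC) and Dnmt3b (5.42 to 5.62 in MLC, 5.46 to 5.84 in MSC) were equivalent with intervals of -0.71 to 0.54 and -0.42 to 0.14.

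The Tet genes split. Tet1, near the floor, was equivalent (-0.35 to 0.42). Tet2 read 5.99, 5.49 and 6.41 in MLC, against 4.34, 6.43 and 6.39 in MSC, and was undetermined (-0.91 to 1.39) with its lowest value on MSC replicate 1. Tet3 read 5.08, 5.58 and 4.89 in MLC, below 5.93, 5.69 and 5.61 in MSC without overlap, as in 5.28% of all genes, a difference of -0.56 (-1.23 to 0.10, adjusted p = 0.999993 in limma).

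Gadd45a, a stress-induced gene of growth arrest and repair, had the widest interval of the list. It read 5.7, 5.5 and 8.04 in MLC, against 5.46, 8.17 and 9.53 in MSC, a difference of -1.31 (-3.64 to 1.02). The 3 high values were those of the low spike-in class. Gadd45g read 10.37, 8.9 and 9.16 in MLC, against 8.27, 9.07 and 8.87 in MSC, a difference of 0.74 (-0.44 to 1.92), and Uhrf1 10.07, 10.82 and 9.75 in MLC, against 10.93, 9.29 and 9.54 in MSC.

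**Figure D4:**
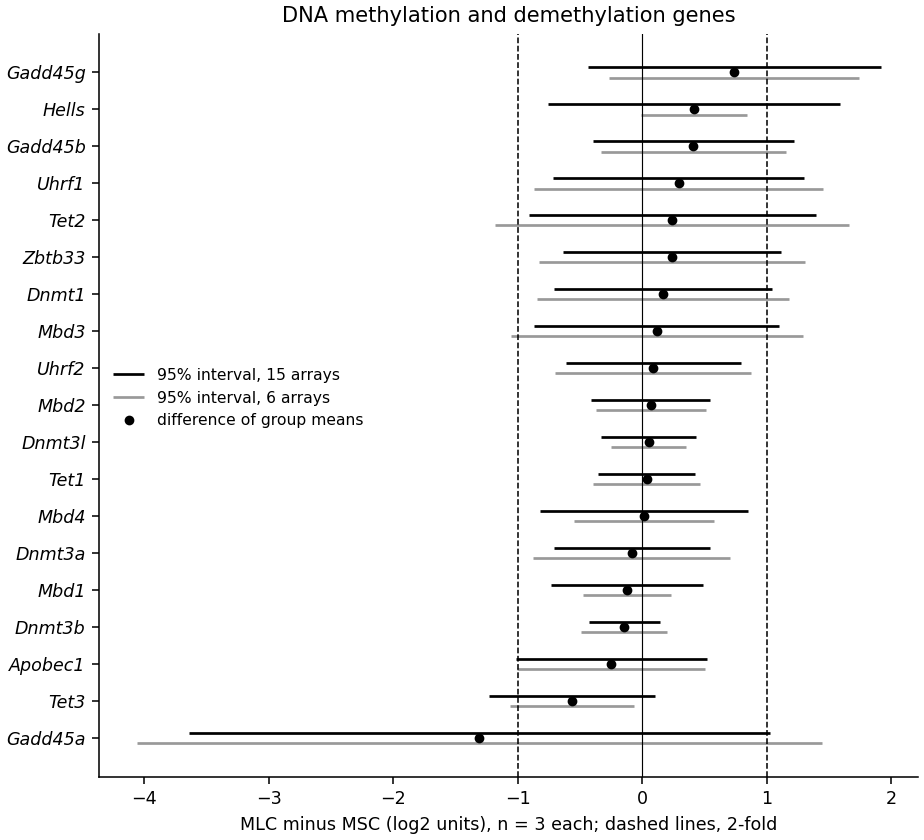
Points give the MLC minus MSC difference in log2 units for 19 DNA methylation and demethylation genes (n = 3 arrays each), with 95% intervals from all 15 arrays (black) and from the 6 MLC and MSC arrays (grey). Dashed lines mark a 2-fold difference. The intervals of Dnmt3a and Dnmt3b lie inside them and that of Gadd45a reaches -3.64.

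Of 28 chromatin modifiers 23 were equivalent and 0 changed, a smaller share than the 90.2% of all genes. Hdac9, a class II deacetylase, had the widest interval (-2.25 to 0.58). Ezh2, the methyltransferase of Polycomb complex 2, read 9.75, 9.37 and 9.24 in MLC, against 9.07, 8.77 and 8.9 in MSC without overlap, as in 5.28% of all genes, a difference of 0.54 (-0.04 to 1.13, adjusted p = 0.999993 in limma). Its 6-array interval was 0.13 to 0.96. Hdac2, a deacetylase, Ehmt2, a histone H3 methyltransferase, and Bmi1, of Polycomb complex 1, lay between 9.54 and 10.6 in MLC and between 9.26 and 10.68 in MSC and were equivalent.

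Of 21 imprinted genes 14 were equivalent. Gnas (12.49 to 12.64 in MLC, 12.46 to 12.8 in MSC) and Ndn (9.13 to 9.44 in MLC, 9.41 to 9.63 in MSC) had intervals within 1 unit. Peg3 and Mest had the largest differences, -0.62 (-1.33 to 0.08) and -0.66 (-1.99 to 0.68). MSC replicate 2 was the highest array for both genes.

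All 35 cell cycle genes had a higher mean in MLC, beside 8315 of all 18193 genes, and 0 changed. Their median difference was 0.24, beside -0.02 over all genes, and 18 of 35 were equivalent. By array the 35 genes averaged 9.77, 9.86 and 9.25 in MLC, against 9.85, 9.28 and 9.06 in MSC, so that the 3 high averages were those of the high spike-in class, which holds 2 MLC arrays and 1 MSC array. Within the high class the median difference was -0.12 and within the low class 0.05. With class as a block it was 0.13, with 28 of 35 higher, and in the 6-array fit with class as a block -0.04, with 13 of 35 higher. Leaving out single arrays gave medians of 0.02 without MSC replicate 3 to 0.47 without MSC replicate 1.

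Pcna, the clamp of DNA polymerase, read 12.31, 12.21 and 12.13 in MLC, against 12.22, 11.94 and 12.09 in MSC (-0.21 to 0.48). Mcm7, a subunit of the replicative helicase, read 11.76, 12 and 11.14 in MLC, against 12.1, 11.54 and 11.12 in MSC. Bub1, a kinase of the spindle checkpoint, read 9.65, 9.46 and 9.52 in MLC, above 8.96, 9.06 and 9.24 in MSC without overlap, as in 5.28% of all genes, a difference of 0.46 (-0.08 to 1.00). Ccne2, a cyclin of S phase entry, had the largest difference of the list, 0.60 (-0.12 to 1.32), with 7.82, 7.23 and 7.02 in MLC and 6.46, 7 and 6.81 in MSC, also without overlap. In hepatocytes the 35 genes averaged 5.38.

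The brakes and G1 drivers of the cycle showed 16 of 24 genes equivalent. Cdk4 (10.9, 11.27 and 11.26 in MLC, against 11.28, 11.06 and 11.17 in MSC), Ccnd1, its cyclin partner (-0.53 to 0.87), and Cdkn2c, an inhibitor of Cdk4 (-0.38 to 0.44), were among them. Cdkn2a, the locus of the senescence proteins p16 and p19, lay near the floor with 2.84 to 3.11 in MLC and 3.01 to 3.41 in MSC. Cdkn1a, the p53 target p21, read 9.91, 9.48 and 9.36 in MLC, against 9.28, 9.49 and 9.42 in MSC, and was undetermined (-0.97 to 1.34).

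Signalling genes gave no change in any of 4 lists. Growth factor genes of the HGF, FGF, PDGF and IGF families were equivalent in 21 of 35 cases (60%, beside 90.2% of all genes). Met, the HGF receptor, read 9.46, 8.97 and 8.88 in MLC, against 8.67, 9.34 and 8.88 in MSC, and Pdgfc 9.56, 8.93 and 9.1 in MLC, against 8.89, 9.59 and 9.4 in MSC. Igfbp4, a carrier of insulin-like growth factors, was undetermined, with 6.96, 6.88 and 8.72 in MLC and 6.89, 8.47 and 9.18 in MSC (-1.88 to 0.56). Its low values were again those of the high-class arrays.

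Wnt pathway genes were equivalent in 32 of 38 cases. Sfrp2, a secreted Wnt modulator, read 11.89, 12.3 and 12.27 in MLC, against 12.11, 12.93 and 12.36 in MSC and 2.93 in hepatocytes. Rspo2, a ligand that amplifies Wnt signals, read 9.21, 9.55 and 10.25 in MLC, against 9.21, 9.86 and 10.46 in MSC. Sfrp1 and Dkk2, both secreted modulators, had the largest differences, -0.54 (-1.48 to 0.40) and 0.45 (-0.80 to 1.71).

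Of 39 chemokine, cytokine and receptor genes 28 were equivalent. Il6, interleukin 6, lay just under the 2-fold line, with 3.44, 3.21 and 6.47 in MLC and 2.73, 3.43 and 4.03 in MSC, a difference of 0.98 (-0.48 to 2.43). Cxcl5, an attractant of neutrophils, read 7.89, 5.65 and 11.64 in MLC, against 4.41, 8.07 and 9.93 in MSC (0.93, -2.98 to 4.84), and Cxcl1, of the same family, 7.55, 6.81 and 10.12 in MLC, against 6.39, 7.43 and 8.49 in MSC. Each of the 3 genes was highest on MLC replicate 3 in MLC and on MSC replicate 3 in MSC.

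The same pair of arrays carried acute phase genes. Saa3, serum amyloid A3, read 5.54, 5.57 and 12.07 in MLC, against 5.76, 5.53 and 10.22 in MSC, a difference of 0.56 (-3.15 to 4.26). Steap4, a metalloreductase induced by inflammation, read 3.55, 3.61 and 10.19 in MLC, against 3.57, 4.11 and 7.8 in MSC (0.63, -2.68 to 3.93). Lcn2, the iron-binding lipocalin 2, read 3.48, 3.09 and 7.72 in MLC, against 3.01, 3.37 and 5.72 in MSC. Each group had 1 array in which these genes were high, both numbered 3 and both of the low spike-in class, while MSC replicate 2 of the same class was low. A difference of 4-fold in either direction lay within the intervals of Saa3, Steap4 and Lcn2.

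Interferon-stimulated and antigen presentation genes were equivalent in 20 of 34 cases. B2m, the light chain of MHC class I, read 11.8, 11.83 and 12.24 in MLC, against 11.85, 12.14 and 12.47 in MSC, and H2-K1, a heavy chain, lay between 10.21 and 10.9 in MLC and between 10.46 and 11.12 in MSC. Usp18, a brake on interferon signalling, was undetermined, with 3.01, 3.89 and 6.25 in MLC and 4.12, 4.87 and 6.63 in MSC (-3.19 to 1.54).

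Metabolic lists did not change either. Of 23 cholesterol and fatty acid synthesis genes 15 were equivalent, Acly, which makes cytosolic acetyl-CoA (-0.73 to 0.58), and Fdft1, squalene synthase (-0.85 to 0.64), among them. Scd1, a fatty acid desaturase, read 10.26, 10.78 and 11.61 in MLC, against 10.81, 11.25 and 11.72 in MSC, and was undetermined (-1.60 to 0.84). MLC replicate 1 was the lowest array of this list, with a mean of 9.42, where the other 5 arrays had 9.88 to 10.0.

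Of 22 glycolysis genes 15 were equivalent. Ldha, lactate dehydrogenase A, read 12.22, 12.41 and 12.21 in MLC, against 12.71, 11.9 and 12.11 in MSC (-0.36 to 0.44), and Pgk1, phosphoglycerate kinase, 12.17, 12.18 and 12.34 in MLC, against 12.19, 11.85 and 12.21 in MSC (-0.17 to 0.46). Of 38 oxidative stress, drug and glutathione genes 23 were equivalent, including Gpx1 and Gstp1, a glutathione peroxidase and a glutathione transferase. Gpx3, a secreted peroxidase, had the widest interval of these, with 5.37, 8.24 and 10.42 in MLC and 8.43, 7.44 and 10.47 in MSC (-3.03 to 1.48).

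All 34 measured cytosolic ribosomal protein genes were equivalent. Rpl38 read 13.32, 13.33 and 13.32 in MLC, against 13.28, 13.26 and 13.27 in MSC, with an interval of -0.16 to 0.27, and Rps2 and Rpl41 lay between 13.39 and 13.59 in MLC and between 13.38 and 13.57 in MSC. Of the 20 housekeeping genes used for centring 19 were equivalent, and Snrpd3, a spliceosome protein, was not. Actb read 13.82, 13.88 and 13.73 in MLC, against 13.92, 13.74 and 13.64 in MSC.

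**Figure D5:**
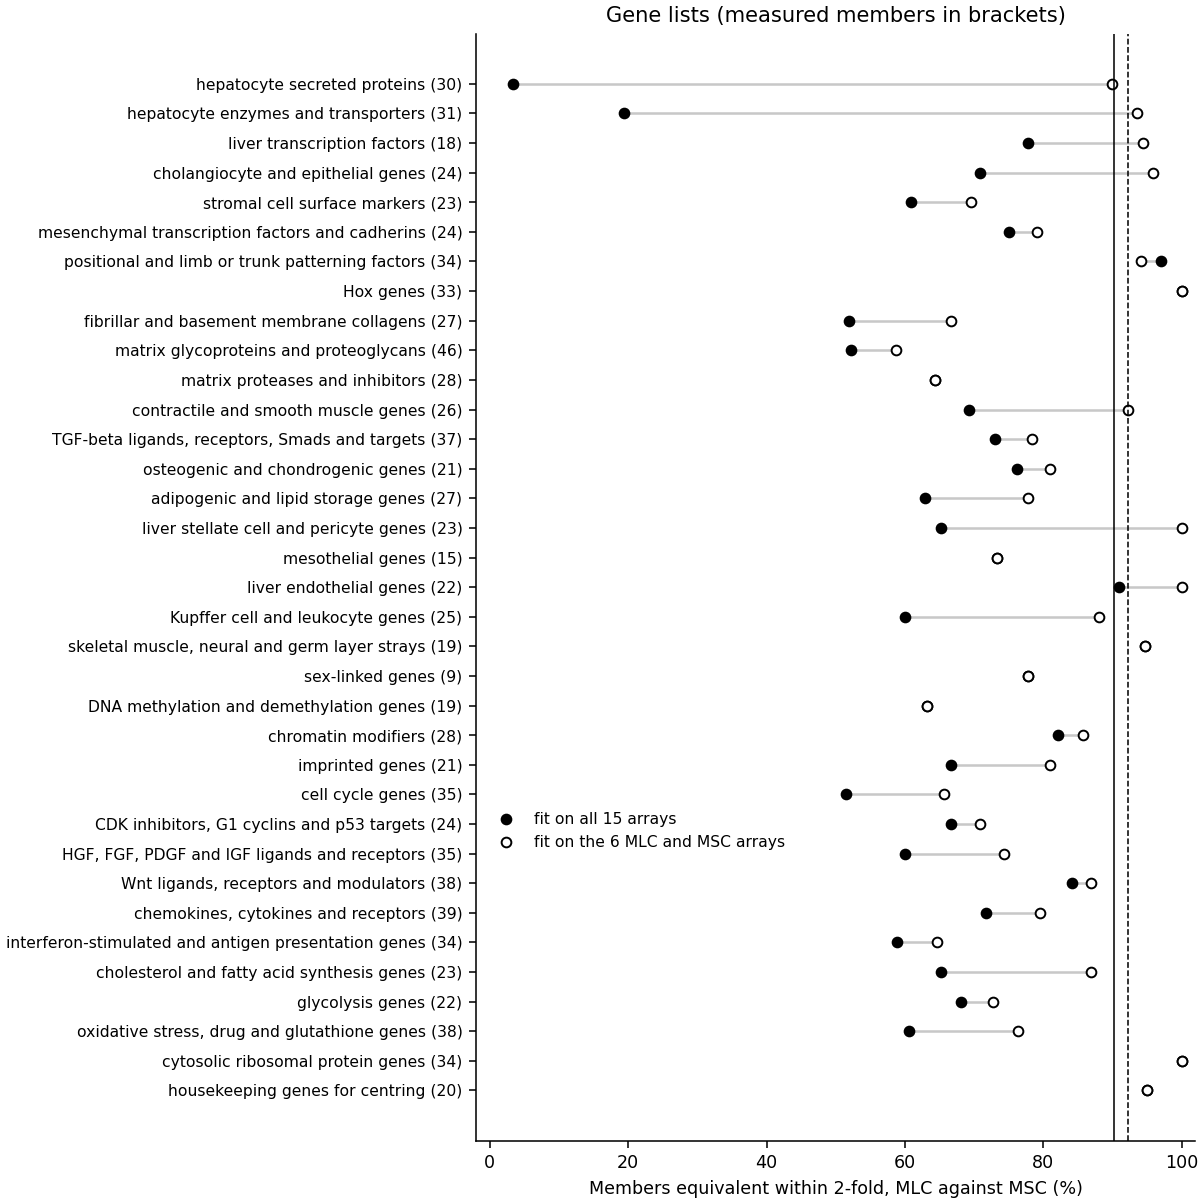
Points give the share of measured members (%) of 35 gene lists that were equivalent within 2-fold between MLC and MSC, in the fit of all 15 arrays (filled) and of the 6 MLC and MSC arrays (open, drawn on top where both are equal). Vertical lines mark the share over all genes, 90.2% (solid) and 92.3% (dashed). Hox and ribosomal protein genes lie at 100%, and the hepatocyte lists move from the left in the 15-array fit to near the lines in the 6-array fit.

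In the fit of all 15 arrays only the Hox, patterning, endothelial, distant-lineage, ribosomal and housekeeping lists had a larger share of equivalent members than all genes (90.2%). The other lists had a smaller share, with stromal matrix and cell cycle genes among the lowest outside the hepatocyte lists.

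The genes that differed by 2-fold or more between the group means were 9, and none passed the test. Tmem176a was highest, with 8.47, 7.62 and 10.51 in MLC and 5.95, 8.54 and 8.77 in MSC, a difference of 1.11 (-0.73 to 2.96). Nrn1, a GPI-anchored protein first known from neurons, read 8.02, 6.57 and 6.46 in MLC, against 4.51, 7.01 and 6.44 in MSC, a difference of 1.03 (-0.89 to 2.94) that rested on the low MSC replicate 1 and the high MLC replicate 1. Plscr2, of the phospholipid scramblase family, read 6.59, 5.02 and 7.26 in MLC, against 4.28, 5.99 and 5.56 in MSC (1.01, -0.68 to 2.70).

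Of the 6 genes lower in MLC, Itga10, the collagen-binding integrin chain of cartilage cells, came nearest to an interval that leaves out 0. It read 4.78, 4.56 and 5.47 in MLC, against 4.57, 7.28 and 7.17 in MSC, a difference of -1.40 (-2.85 to 0.04). Cd53, a tetraspanin of leukocytes, read 4.8, 3.65 and 3.94 in MLC, against 4.1, 5.97 and 5.79 in MSC (-1.15, -2.91 to 0.61), while the other of its 2 probe sets differed by 0.04. F13a1, the A chain of coagulation factor XIII, read 7.25, 4.75 and 7.1 in MLC, against 4.57, 8.73 and 8.82 in MSC (-1.01, -3.40 to 1.38). In all 3 genes MSC replicate 1 was low, and MSC replicates 2 and 3 lay above every MLC array. Aspn, Gadd45a and Ccn3, described above, complete the 6.

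Probe sets of 1 gene disagreed in sign for several other named genes. Over all probe sets of a gene the difference ran from -0.12 to 0.66 for Fabp4, from -0.19 to 0.44 for Inhba, from -0.73 to 0.03 for Igfbp4 and from -0.67 to 0.06 for Peg3. For Snrpd3 it ran from -0.31 to 0.35, for Tet1 from -0.50 to 0.04 and for Kdm5d from -0.15 to 0.31. In some genes the sign held while the size varied. The difference ran from -0.81 to -0.19 for Fn1, from -0.66 to -0.03 for Col1a2 and from -0.43 to -0.11 for Col1a1. It ran from -0.84 to -0.09 for Col5a3, from -0.84 to -0.10 for Adamts4 and from -0.89 to -0.10 for Dmp1. The values and calls given for all these genes are those of the brightest probe set.

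Just inside the threshold of 2-fold were Plscr2 (1.01) and F13a1 (-1.01), and just outside it were Tmem176b (0.99) and Il6 (0.98). Tmem176a and Tmem176b are neighbours that run in opposite directions and encode related membrane proteins of the MS4A family. Tmem176b read 9.23, 7.47 and 10.74 in MLC, against 6.18, 9.04 and 9.26 in MSC, and ranked the 6 arrays as Tmem176a did except that MLC replicate 1 and MSC replicate 2 changed places. Hepatocytes averaged 10.7 for Tmem176a and 10.8 for Tmem176b.

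The start windows of this pair overlap, and 1 is shown because both genes were high and low on the same arrays. The window of Tmem176a is chr6:48841406-48841705 on the plus strand of GRCm38.p6 (RefSeq), of which 219 bases, in capitals, also lie in a window of Tmem176b on the minus strand.
Tmem176a: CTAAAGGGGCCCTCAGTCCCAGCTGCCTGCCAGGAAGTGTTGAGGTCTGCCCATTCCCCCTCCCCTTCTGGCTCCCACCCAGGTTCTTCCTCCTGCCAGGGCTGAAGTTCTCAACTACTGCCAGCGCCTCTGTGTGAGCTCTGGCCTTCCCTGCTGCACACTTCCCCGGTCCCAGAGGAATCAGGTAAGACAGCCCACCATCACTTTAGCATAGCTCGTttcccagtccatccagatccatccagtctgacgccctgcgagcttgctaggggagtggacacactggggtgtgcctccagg

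Between MLC and MSC, 492 of all 18193 genes differed by 1 or more within the high spike-in class and 67 within the low class. Of all 18193 genes, 5 did so in the same direction in both classes. They were Tmem176a, Tmem176b, Cxcl5, Ces1g and Plscr2, all higher in MLC, and all chosen after their values were seen. The only MSC array of the high class was replicate 1, which stood apart from its group, and the only MLC array of the low class was replicate 3. For Tmem176a the difference was 2.10 within the high class and 1.86 within the low class, and for Tmem176b 2.17 and 1.59. Ces1g, a carboxylesterase of liver, read 6.17, 4.68 and 6.23 in MLC, against 4.36, 5.53 and 4.92 in MSC, and averaged 10.3 in hepatocytes. There is no test within a class, where 1 group has a single array, and none of the 5 genes passed in the fit with class as a block.

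In 960 genes (5.28%) every array of 1 group lay above every array of the other, 272 higher and 688 lower in MLC, and 19 of them differed by 0.5 or more. Rassf6, of the Ras association family, read 6.29, 4.99 and 5.66 in MLC, against 4.84, 4.82 and 4.82 in MSC (0.82, -0.15 to 1.79). Bbs12, a chaperonin-like protein of the cilium, read 6.15, 5.87 and 5.47 in MLC, against 5.2, 5.17 and 5.17 in MSC, a difference of 0.65 whose interval of 0.16 to 1.14 leaves out 0 before adjustment (adjusted p = 0.999993 in limma). Ereg, the growth factor epiregulin, read 7.34, 6.77 and 6.73 in MLC, against 6.36, 6.38 and 6.41 in MSC (0.56, -0.56 to 1.68).

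The 1779 undetermined genes had wide intervals rather than large differences. Their median absolute difference was 0.23 units, but their intervals had a median of 1.20 units on either side. Of them 612 (34.4%) differed by 1 or more between the spike-in classes of the 6 arrays, against 0.938% of the equivalent genes. Each group holds arrays of both classes, so a difference between classes widens the interval of a gene by itself. The contrast of these shares therefore follows in part from how genes were called, and the part of the class was not tested. For these genes the arrays neither showed a difference between MLC and MSC nor placed it within 2-fold.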

How the data were processed

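Expression was measured on mouse Affymetrix arrays, 1 per sample, in 15 samples of 5 groups of 3, grouped by their titles. The deposited values are log2 expression values per probe set, made with RMA per the submitters' processing notes, and the values' range shows the log2 scale. RMA corrects background, sets all arrays to 1 distribution and summarises probes, so it removes differences in total RNA. The genome build behind the probe sets is not given in the sources used here. The precision is limited by the number of arrays.

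Of 45101 probe sets, 64 controls, 932 with several gene symbols and 9160 with none were left out. The remaining 34945 gave 18193 genes by GEO's platform annotation, and 9010 genes had more than 1 probe set. Group means of all 15 arrays were fitted with limma 3.58.1 (R 4.3.3, lmFit and eBayes, 10 residual and 2.98 prior degrees of freedom), with Benjamini-Hochberg adjustment over all genes. The tests were checked on simulated data with independent normal errors and no spike-in class effect, so the check does not extend to that feature of these arrays. Distances and exact permutations used Python 3.11.15, numpy 2.4.6, pandas 2.3.3 and scipy 1.17.1. Spike-in class was split at the widest gap in the mean spike-in signal. Replicate numbers were not taken to pair the samples, because nothing says that they mark a shared animal or day.

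The 35 gene lists (911 of 998 symbols measured) and the comparison were chosen with earlier results of these data known. Named genes are, per list, the 2 largest differences where none changed and up to 3 of the highest level with an interval within 1 unit, all DNA methylation and sex-linked genes, the 5 brightest equivalent genes and 2 genes on each side of 2-fold. Further genes, such as Vim, Saa3, Steap4, Lcn2, Hoxc10, Cd44 and single liver and cell type markers, were added for their known roles or after their values were seen. Alternatives covered probe set choice, dim genes, scaling, the prior, the arrays fitted, array weights, blocks, margins and leaving out each array.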

Additional observations from a re-analysis of the deposited data

How the results depend on the processing

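The count of changed genes was 0 in all settings tried, those without a fold limit and with a treat limit of 1.5-fold included, while 20 to 1549 genes had an unadjusted p under 0.05 in limma, the highest count with array weights. The count equivalent within 2-fold was 16414. It was 30960 of 34945 when each probe set was tested by itself, 10098 of 11435 with genes under 5 in both groups left out, 8322 with a margin of 0.58 units and 18045 with a margin of 2, shifts that follow from the number of features tested or the margin. Leaving out single arrays gave 15012 to 15791, lowest without MLC replicate 3. With spike-in class as block it was 16649. Chosen after seeing the data, the fit without HD28 replicate 3 gave 16736 and the 6-array fit with the class as a block 17297. With the replicate number as a block 0 genes changed and 16647 were equivalent. Same-numbered MLC and MSC arrays correlated at -0.21, -0.68 and 0.77 in their deviations from the group means, and MLC replicate 2 with MSC replicate 1 at 0.85. Deviations within a group depend on one another, so these values cannot show whether arrays shared an animal or day. Between-group minus within-group distance stayed below 0 when single arrays were left out (-0.114 to -0.0204). Of 5063 values of 244 named genes under the alternatives, 53 moved by more than 1 SD and 0 had an adjusted p under 0.05 (lowest 0.5665). With 3 arrays a group, differences under the interval of a gene cannot be seen, and RMA cannot show a change in total RNA per cell.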
